A study of Mus musculus with 8 samples.

Results

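The 8 genes Hmgcs1, Mvd, Idi1, Fdps, Fdft1, Sqle, Lss and Cyp51 encode enzymes of cholesterol synthesis, and were followed through mammary tumours of mice given SKI-606 or vehicle. They were taken by symbol, and every array probe annotated to 1 of these symbols and to no other was used. This gave 22 probes of 45037 tested, and 8 genes of 18193 measured. The tumours came from female mice of the transgenic MMTV-PyMT line on the FVB/N background, in which the promoter of the mouse mammary tumour virus drives the polyoma virus middle T antigen in the mammary epithelium, so that all 8 samples carried the transgene. The vehicle group had 4 samples. The treated group also had 4, and its mice received SKI-606 by oral gavage at 100 mg/kg in methocellulose with Tween 80. SKI-606, or bosutinib, blocks tyrosine kinases of the Src and Abl families. The sources used here do not give the number of doses, the sampling time, the age of the mice or the make-up of the vehicle. Animals are not listed one by one in the labels, so p-values measure the spread between these samples, which may be technical in part. The question in the title of the series is whether the drug makes mammary tumours differentiate.

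Cholesterol is built from acetyl-CoA in the cytosol and the endoplasmic reticulum. Its first stretch, the mevalonate pathway, ends in the isoprenoid building blocks isopentenyl and dimethylallyl diphosphate, which are joined to farnesyl diphosphate. Farnesyl diphosphate either goes to squalene and sterols or leaves for protein prenylation, ubiquinone and dolichol. The genes of the pathway are known to be switched on together by the transcription factor SREBP-2 (gene Srebf2) when membrane sterol is low, and sterol excess is sensed by the Insig proteins and by the LXR receptors, which turn on sterol efflux. In mammary epithelium the pathway serves the membranes of dividing cells and the secretion of milk lipid.

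Promoter sequences are shown because these genes are known as a co-regulated group. RefSeq windows on build GRCm38.p6 matched 5 of the 8 members, and the 250 bases before the start site are given here, 5′ to 3′ on the strand of the gene. The Lss window uses a start site inside the gene span given below. It ends at 76531604, while that span starts at 76531565. Capitals mark the sterol regulatory element core TCACNCCAC, the CCAAT box and the GC box GGGCGG on either strand, so that CCAAT can read ATTGG and GGGCGG can read CCGCCC.
Hmgcs1, chr13:119690101-119690350, plus strand: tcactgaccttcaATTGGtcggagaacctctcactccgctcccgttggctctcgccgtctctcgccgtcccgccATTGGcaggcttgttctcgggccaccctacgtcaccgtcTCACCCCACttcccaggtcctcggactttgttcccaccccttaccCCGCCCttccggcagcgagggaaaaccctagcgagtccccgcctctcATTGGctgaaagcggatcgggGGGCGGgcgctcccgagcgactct
Mvd, chr8:122443423-122443672, minus strand: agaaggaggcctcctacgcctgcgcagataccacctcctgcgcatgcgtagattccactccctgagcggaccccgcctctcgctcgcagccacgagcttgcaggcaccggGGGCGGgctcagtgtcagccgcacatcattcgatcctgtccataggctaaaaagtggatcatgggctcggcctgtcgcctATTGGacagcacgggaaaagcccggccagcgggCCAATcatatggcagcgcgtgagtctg
Idi1, chr13:8885356-8885605, plus strand: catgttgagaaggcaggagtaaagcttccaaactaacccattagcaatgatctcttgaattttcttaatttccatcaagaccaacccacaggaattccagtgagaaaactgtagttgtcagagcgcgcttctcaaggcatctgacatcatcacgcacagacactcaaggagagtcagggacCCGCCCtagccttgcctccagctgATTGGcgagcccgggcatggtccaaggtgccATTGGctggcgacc
Lss, chr10:76531355-76531604, plus strand: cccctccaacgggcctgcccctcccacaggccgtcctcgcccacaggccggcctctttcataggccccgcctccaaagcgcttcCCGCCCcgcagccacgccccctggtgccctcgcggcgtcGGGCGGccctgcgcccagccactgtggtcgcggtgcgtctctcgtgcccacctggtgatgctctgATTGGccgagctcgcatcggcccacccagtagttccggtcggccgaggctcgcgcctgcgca
Cyp51, chr5:4104698-4104947, minus strand: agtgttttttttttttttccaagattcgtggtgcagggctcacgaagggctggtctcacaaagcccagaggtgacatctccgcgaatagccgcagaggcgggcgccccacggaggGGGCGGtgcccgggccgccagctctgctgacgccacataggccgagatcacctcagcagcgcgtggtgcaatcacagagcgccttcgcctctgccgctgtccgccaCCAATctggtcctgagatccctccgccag

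In these windows, extended by the 50 bases after the start site, the sterol regulatory element core was found in 1 of 5 members. It lay in Hmgcs1, with its first base 137 bases before the start, and 1.24% of the 32851 promoters of the table held it. A CCAAT box, the site of NF-Y, a factor known to act beside SREBP, was present in 5 of 5 members, and in 37.4% of all promoters. In Idi1 CCAAT boxes lay 45 and 14 bases before the start, in Mvd 60 and 27, in Lss 62 and in Cyp51 29. A GC box was also present in 5 of 5, against 35.7% of all promoters, and the E-box CACGTG in 0 of 5, against 7.15%. None of the marked sites overlapped another. These matches describe letters in the windows and do not show binding.

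Each sample was read on 1 Affymetrix array, and the number of arrays limits the precision. Signals are in array units after quantile normalization, and fold changes are on the scale of log2(signal + 16), SKI-606 minus vehicle, with standard error (SE) or 95% confidence interval and n = 4 in each group. This scale understates the change of dim probes. Array medians lay between 15 and 23. SKI-606 samples 1 and 4 stood apart over all probes on the first principal component (81.1 and 72.4, against -38.5 to -14.8 in the others) and vehicle sample 3 on the second (-81, against -2.3 to 35.2). These 3 samples also had the highest squamous keratin scores, 9.31 to 9.67 against at most 6.42, so the values of the named genes are also given without them. Only SKI-606 samples 2 and 3 and vehicle samples 1, 2 and 4 then remain, so those values rest on few tumours.

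The cholesterol synthesis genes had lower average signals in the SKI-606 tumours, unevenly from gene to gene and from tumour to tumour, and no gene passed the test. Taking the brightest probe of each gene, log2 fold changes ran from -1.05 for Idi1 to -0.01 for Fdft1, with a median of -0.43. The median over all genes was -0.02. All 8 members were below 0, against 52.9% of genes measured and 57.9% of those with a mean signal of at least 100, as all members had. Fdft1 and Cyp51 turned above 0 when arrays were scaled to a common median. In Idi1, Lss and Sqle, 3 of 8 members, all SKI-606 values lay below all vehicle values after quantile normalization, as in 2.03% of genes. On the deposited ratios, which are scaled by array medians, the groups overlapped in each of these genes. Idi1 there was 1.11 in SKI-606 sample 2 against 0.999 in vehicle sample 2. Lss, Mvd and Idi1, again 3 of 8, were lower at an unadjusted p under 0.05, as were 4.31% of genes. The shares of 2.03% and 4.31% are over all genes, dim ones included, and were not counted for bright genes alone. The members were chosen with earlier results of these data known, so these shares describe them and are no test of the group. With limma and Benjamini-Hochberg adjustment over all probes, 0 of 22 member probes were called, and 0% of all probes were, with 3771 of 45037 probes at an unadjusted p under 0.05. The adjusted p of the members ranged from 0.558 to 0.996.

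**Figure D1:**
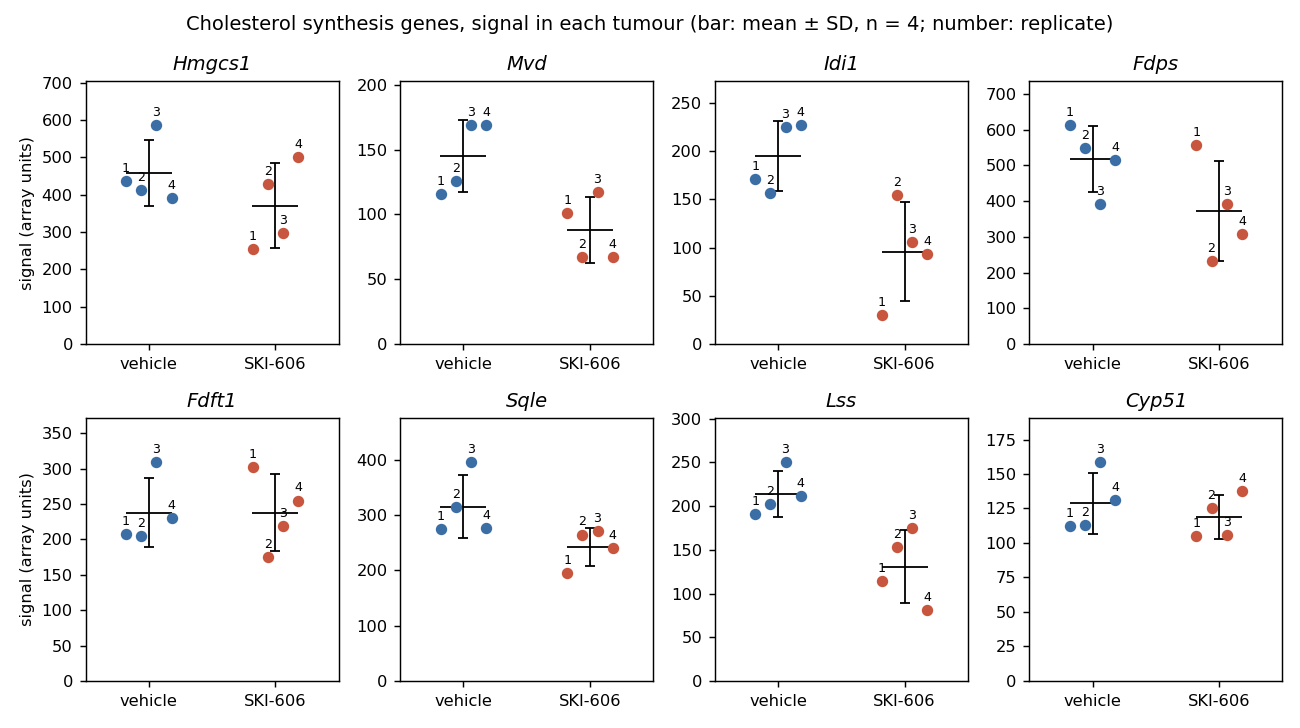
Signal (array units, linear axis from 0) of the brightest probe of each gene in the 4 vehicle and 4 SKI-606 tumours, with replicate numbers beside the points and the group mean ± SD as black bars. On this quantile-normalized scale the groups do not overlap for Idi1, Sqle and Lss, and they overlap broadly for Fdft1 and Cyp51.

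Of the 22 probes, 14 had a mean signal of at least 50, 2 lay between 10 and 50, and 6 were below 10, near the floor of the array. The log2 fold change was below 0 for all 14 of the brighter probes, with an unadjusted p under 0.05 in limma for 4 of them. Several of these probes belong to the same gene. Of all genes with a mean signal of at least 50, 56.7% were below 0, and their share at that p was not counted. Of all 22 probes 20 were below 0 and 2 above, and the latter, 1 probe of Fdft1 and 1 of Lss, were among the 6 dimmest. With arrays scaled to a common median, 11 of the 14 brighter probes were below 0.

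**Figure D2:**
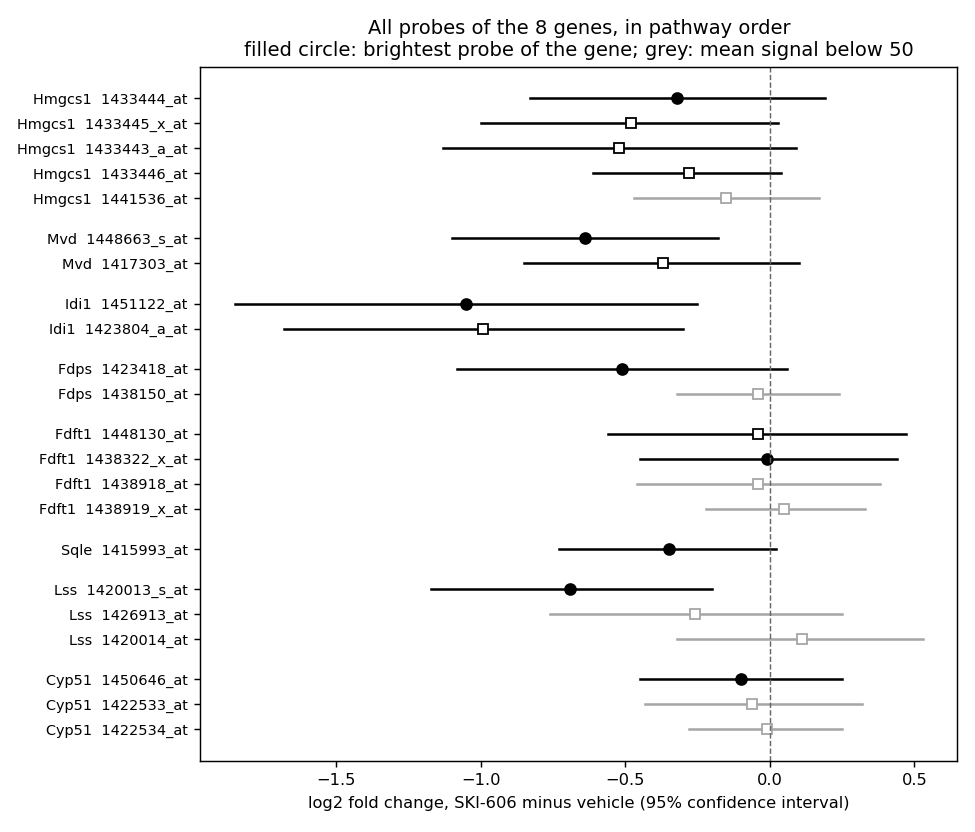
Log2 fold change (SKI-606 minus vehicle, point) with its 95% confidence interval (line) for all 22 probes, in pathway order. Filled circles are the brightest probe of a gene and grey marks are probes with a mean signal below 50. Only the intervals of both Idi1 probes, 1 Mvd probe and 1 Lss probe lie wholly below 0 on this scale.

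Hmgcs1 (chr13:119690351-119708260 on GRCm38.p6, as for the genes that follow) encodes the cytosolic HMG-CoA synthase, an early enzyme of the mevalonate pathway. Its brightest probe, 1433444_at, read 437, 414, 587 and 391 in the vehicle tumours, numbered 1 to 4, and 256, 429, 297 and 500 in the SKI-606 tumours. SKI-606 samples 1 and 3 were below every vehicle sample, while samples 2 and 4 lay inside the vehicle range. The log2 fold change was -0.32 ± 0.23 (SE), with an unadjusted p of 0.189 in limma. Single samples weighed on it, since it was -0.17 with SKI-606 sample 1 dropped, -0.20 with vehicle sample 3 dropped and -0.48 with SKI-606 sample 4 dropped. It was -0.07 when arrays were scaled to a common median and -0.20 without the 3 samples that stood apart. The 3 other probes with a mean signal above 50 had values of -0.52 ± 0.27, -0.48 ± 0.23 and -0.28 ± 0.14. The remaining probe, 1441536_at, had a mean signal of 1.72.

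Mvd (chr8:122433596-122443422) encodes mevalonate diphosphate decarboxylase, which makes isopentenyl diphosphate. Its brightest probe, 1448663_s_at, read 116, 126, 169 and 169 in vehicle samples and 101, 67, 117 and 67 in SKI-606 samples. SKI-606 samples 2 and 4 were the low ones, and sample 3 alone reached the lowest vehicle value. The log2 fold change was -0.64 ± 0.21 (interval -1.10 to -0.18), a mean of 145 ± 28.3 against 88 ± 25.1 (SD, n = 4), with an unadjusted p of 0.0113 and an adjusted p of 0.558 in limma. The other probe, 1417303_at, gave -0.37 ± 0.21, with SKI-606 samples 2 and 4 again the lowest, at 81 and 68. Without the 3 samples that stood apart the brighter probe stood at -0.53, with an unadjusted p of 0.0994 in limma.

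Idi1 (chr13:8885606-8892396) encodes isopentenyl diphosphate isomerase, which turns isopentenyl into dimethylallyl diphosphate, and it had the widest difference of the 8 members when all samples were used. Probe 1451122_at read 171, 156, 225 and 227 in vehicle samples and 30, 154, 106 and 93 in SKI-606 samples. All SKI-606 values were below the vehicle values, SKI-606 sample 1 by far the lowest and sample 2 just under vehicle sample 2. Means were 195 ± 36.7 for vehicle and 95.6 ± 51.1 for SKI-606 (SD, n = 4), a 2.07-fold difference on the log2(signal + 16) scale. The log2 fold change was -1.05 ± 0.36 (interval -1.85 to -0.25), with an unadjusted p of 0.0153 and an adjusted p of 0.558 in limma. The second probe, 1423804_a_at, read 142, 114, 108 and 150 in vehicle samples and 25, 106, 74 and 44 in SKI-606 samples, with the same order among the SKI-606 samples and a log2 fold change of -0.99 ± 0.31. With SKI-606 sample 1 dropped the value of 1451122_at was -0.67, where Fdps (-0.72) and Mvd (-0.71) lay lower. Without the 3 samples that stood apart it was -0.46, and Fdps and Mvd again lay lower. On the deposited ratios the groups overlapped, with SKI-606 sample 2 above vehicle samples 2 and 3.

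Fdps (chr3:89093588-89101967) encodes farnesyl diphosphate synthase, which joins the building blocks into the branch-point intermediate. Probe 1423418_at read 613, 548, 392 and 516 in vehicle samples and 556, 233, 393 and 308 in SKI-606 samples. SKI-606 sample 1 was among the high values here, although it was the lowest for Idi1, and sample 2 was the lowest. This gave a log2 fold change of -0.51 ± 0.25 (interval -1.08 to 0.06), with an unadjusted p of 0.0755 in limma. It was -0.72 without SKI-606 sample 1 and -0.32 when SKI-606 sample 2 was dropped. Without the 3 samples that stood apart it was -0.85, with only the SKI-606 values of 233 and 393 left. The unadjusted p in limma was then 0.0143 and the adjusted p 1. The second probe had a mean signal of 1.78 and measures nothing above the floor. The mean over both Fdps probes was -0.28.

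Fdft1 (chr14:63145150-63181687) encodes squalene synthase, the first enzyme committed to sterols. Probe 1438322_x_at read 207, 205, 310 and 230 in vehicle samples and 303, 175, 219 and 255 in SKI-606 samples, and probe 1448130_at read 240, 229, 264 and 219, and 347, 153, 192 and 271. In both probes SKI-606 sample 1 was the highest SKI-606 value and sample 2 the lowest of all 8. The log2 fold changes were -0.01 ± 0.20 (interval -0.45 to 0.44) and -0.04 ± 0.23 (interval -0.56 to 0.47). The intervals include a difference as wide as that of Sqle, so a lack of difference is not shown. Probes 1438918_at and 1438919_x_at were near the floor, with mean signals of 5.07 and 2.91. Without the 3 samples that stood apart probe 1438322_x_at was at -0.12. Its sign turned under several settings, listed in the closing section.

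Sqle (chr15:59315092-59331193) encodes squalene epoxidase, known as a rate-controlling step of the sterol branch. Its only probe, 1415993_at, read 275, 314, 397 and 276 in vehicle samples and 195, 265, 271 and 241 in SKI-606 samples. The groups did not overlap, but SKI-606 samples 2 and 3 came close to vehicle samples 1 and 4. On the log2 scale the difference was -0.35 ± 0.17 (interval -0.73 to 0.02), with an unadjusted p of 0.0633 in limma. Vehicle sample 3 was the highest, and without it the value was -0.24. Without all 3 samples that stood apart it was -0.10. The groups overlapped on the deposited ratios.

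Lss (chr10:76531565-76557139) encodes lanosterol synthase, which closes the sterol rings. Probe 1420013_s_at read 191, 202, 251 and 212 in vehicle samples and 114, 153, 175 and 81 in SKI-606 samples, with no overlap and SKI-606 sample 4 the lowest. The log2 fold change was -0.69 ± 0.22 (interval -1.17 to -0.20), with means of 214 ± 26 and 131 ± 41.8 (SD, n = 4), an unadjusted p of 0.0102 and an adjusted p of 0.558 in limma. A second probe, 1426913_at, of mean signal 49.1, gave -0.26 ± 0.23 with overlapping groups. The third probe was near the floor. The mean over all 3 probes was -0.28, with an unadjusted p of 0.0745 in limma, so that the p under 0.05 rests on the brightest probe. Without the 3 samples that stood apart the brightest probe stood at -0.27. On the deposited ratios its groups overlapped, with SKI-606 sample 3 above vehicle sample 3.

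Cyp51 (chr5:4080674-4104697) encodes lanosterol demethylase, the first step after ring closure. Probe 1450646_at read 112, 113, 159 and 131 in vehicle samples and 105, 125, 106 and 138 in SKI-606 samples. The groups overlapped, with SKI-606 samples 2 and 4 inside the vehicle range. Its log2 fold change stood at -0.10 ± 0.16 (interval -0.45 to 0.25). It was 0.16 when arrays were scaled to a common median, -0.0024 with vehicle sample 3 dropped and -0.03 without the 3 samples that stood apart. A dimmer probe, 1422533_at, of mean signal 35.5, was at -0.06, and 1422534_at had a mean signal of 1.23. The brightest probes of Mvd and Lss carry the suffix _s_at and that of Fdft1 _x_at, which mark probe sets that can match further transcripts.

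The lowest values of the members fell in different tumours. SKI-606 sample 1 held the lowest of the 8 values for Hmgcs1, Idi1, Sqle and Cyp51, SKI-606 sample 2 for Mvd, Fdps and Fdft1, and SKI-606 sample 4 for Lss. In SKI-606 sample 1, log2 values relative to the mean of each gene were -1.67 for Idi1, 0.37 for Fdps and 0.35 for Fdft1. Vehicle sample 3 held the highest quantile-normalized value of 5 members (Hmgcs1, Fdft1, Sqle, Lss and Cyp51), yet had the lowest Fdps value of the vehicle group. On the deposited ratios it was the highest for none of these 5, so this depends on the scale of its array. The mean log2 value of the 8 members in vehicle tumours 1 to 4 was 7.92, 7.92, 8.24 and 8.04, and for SKI-606 tumours 1 to 4 it was 7.45, 7.60, 7.69 and 7.56. All SKI-606 tumours were thus below all vehicle tumours in this mean on the quantile-normalized scale. In each SKI-606 tumour, however, between 2 and 3 members lay above their own mean over the samples. The mean was not taken on the deposited ratios, where the groups overlapped in every member. Vehicle sample 3 was there below SKI-606 sample 2 in Hmgcs1, Idi1, Sqle and Cyp51.

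**Figure D3:**
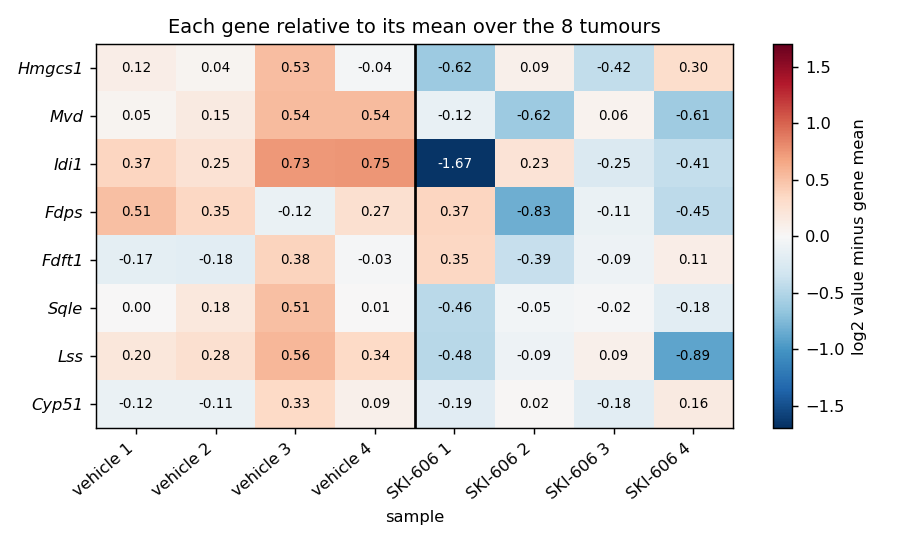
Log2 value of the brightest probe of each gene minus the mean of that gene over the 8 tumours (colour and printed value), vehicle samples left of the line and SKI-606 samples right of it. The lowest value is Idi1 in SKI-606 sample 1 (-1.67), and the lowest cells of the other genes fall in SKI-606 samples 1, 2 and 4.

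The scale of the arrays bears on these values. Scaling every array to a common median, in place of quantile normalization, put the median of all genes at 0.10 and that of the 7262 genes with a mean signal of at least 100 at 0.19, against -0.06 for the latter as normalized here. All 8 members belong to these brighter genes. The median of the members was then -0.17. Relative to the median of the brighter genes this was -0.36, whereas with quantile normalization it was -0.37. Scaling multiplies each array by a constant, which moves bright genes by nearly the same amount on the log scale. The relative value could thus hardly change, and its closeness does not test whether the lower member values depend on the scale. The members' median relative to that of the brighter genes ran from -0.42 to -0.33 over the 17 settings that kept at least 7 samples. Settings that only rescale the arrays are held close in the same way. Without the 3 samples that stood apart the relative value was -0.23. The share of brighter genes below 0 was 57.9% with quantile normalization and 25.6% with scaling to a common median. With the latter scaling 6 of 8 members were below 0, and 0 at an unadjusted p under 0.05, with Idi1 at -0.81, Lss at -0.42 and Mvd at -0.38.

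Other enzymes of the pathway were mostly below 0 as well on the quantile-normalized scale, some by as much as members. Of 14 further genes of the mevalonate and sterol pathway 11 were measured and the other 3 were not analysed here. Of the 11, 9 were below 0 and 2 above, with a median of -0.13, and 0 were called. Among all genes 52.9% were below 0. Among genes with a mean signal of at least 100 it was 57.9%, with a median of -0.06. The same shares apply to the lists that follow, whose counts below and above 0 were taken on this scale only. Pmvk, the phosphomevalonate kinase that acts just before Mvd, stood at -0.54 ± 0.24 (unadjusted p 0.0471 in limma), with SKI-606 values of 162, 147, 264 and 113 against vehicle values of 253, 201, 232 and 307. SKI-606 sample 3 lay inside the vehicle range and the other SKI-606 samples below it. Lbr, a sterol reductase of the inner nuclear membrane, stood at -0.46 ± 0.20, and at -0.29 with SKI-606 sample 1 dropped. With arrays scaled to a common median Pmvk was at -0.28 and Lbr at -0.20. They were at -0.32 and -0.11 without the 3 samples that stood apart. Of 10 genes of sterol sensing and SREBP processing 8 were measured, 5 below 0 and 3 above, with a median of -0.12. None was called or had an unadjusted p under 0.05 in limma. Srebf2 was at 0.07 ± 0.21 (interval -0.41 to 0.54), Insig1, itself known as an SREBP target, at -0.21 ± 0.18 and Mbtps2, the protease that frees SREBP from the membrane, at -0.42 ± 0.30. The signs of these 3 genes turned in some settings. They were at -0.0001, -0.02 and 0.07 without the 3 samples.

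Genes known as LXR targets or as part of sterol efflux and oxysterol metabolism lay on the other side. Of 9 measured, 8 were above 0, with a median of 0.44, and 0 were called, while 3 had an unadjusted p under 0.05, as did 6.07% of genes in that direction. Apoe, the apolipoprotein that carries cholesterol out of macrophages, stood at 0.74 ± 0.28, Mylip, a ubiquitin ligase known as an LXR target, at 0.57 ± 0.22 and Nr1h3, which encodes LXR alpha, at 0.44 ± 0.19. Macrophage markers moved with this list. All 8 of 8 macrophage genes were above 0, with a median of 0.74, their summed signals were 5487 to 10951 in vehicle and 8626 to 20673 in SKI-606 samples, and their part in the efflux genes was not tested. Apoe was at 0.18, Mylip at 0.54 and Nr1h3 at 0.53 without the 3 samples that stood apart.

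Among 9 measured genes of sterol uptake, transport and storage, 5 were above 0 and 4 below, with a median of 0.03 and 0 called. Lipa, the lysosomal acid lipase that frees cholesterol from lipoprotein esters, stood at 0.60 ± 0.24, and at 0.60 without the 3 samples that stood apart. Lrp8, a lipoprotein receptor with a mean signal of 30.6, stood at -0.59 ± 0.19 without overlap of the groups. Its other probes, of mean signal 14.1 and 8.28, stood at -0.25 and -0.67. The brightest Lrp8 probe was at -0.38 without the 3 samples. Of 10 measured genes of the non-sterol branches, 8 were below 0, with a median of -0.18 and 0 called. The lowest unadjusted p among them belonged to Dhdds, a dolichol synthesis enzyme, at -0.34 ± 0.16, and Coq2, of ubiquinone synthesis, at -0.32 ± 0.19. Both were at -0.08 with arrays scaled to a common median, and Dhdds was at -0.32 and Coq2 at -0.07 without the 3 samples. The other Dhdds probes, stood at -0.09 and -0.23. Fatty acid genes known as SREBP-1 targets had a median of -0.27 over 13 genes, with 10 below 0 and 0 called. Thrsp, a promoter of fat synthesis in lipid-making tissues, read 5766, 4784, 6298 and 5465 in vehicle tumours and 1258, 3051, 3691 and 544 under SKI-606. The groups did not overlap, with SKI-606 samples 1 and 4 the lowest, and the log2 fold change was -1.72 ± 0.51, or -0.66 without the 3 samples that stood apart. Acly, which supplies cytosolic acetyl-CoA, stood at -0.57 ± 0.22, while the desaturase genes Fads2 and Fads1 were at 0.62 ± 0.25 and 0.42 ± 0.19. Other probes of Fads2 were at 0.16 and 0.35. A second probe of Fads1, of mean signal 22.9, went the other way, at -0.43 ± 0.16. Without the 3 samples that stood apart Acly was at -0.24, Fads2 at 0.38 and Fads1 at 0.38. Adjusted p-values of the pathway genes named here ran from 0.558 to 0.957 in limma.

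**Figure D4:**
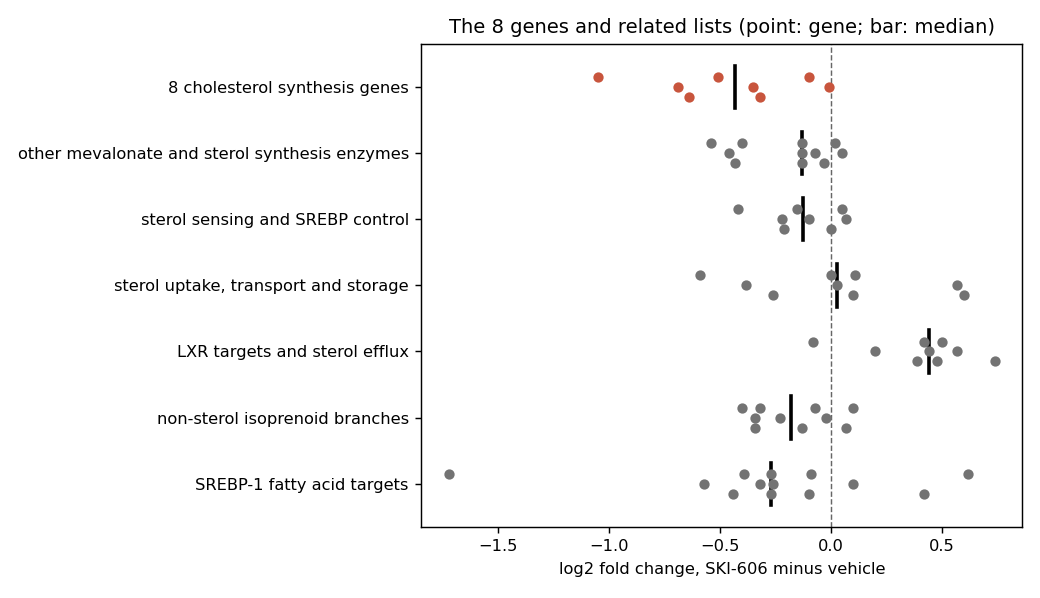
Log2 fold change (SKI-606 minus vehicle) of each gene, as points, for the 8 members and 6 related lists, with the median as a black bar. The members have a median of -0.43 and the LXR and efflux list one of 0.44, on the quantile-normalized scale.

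The samples differed in their make-up, and in bulk tumours fewer cells of a type and less RNA per cell cannot be told apart. All 15 measured cell cycle genes were below 0, with a median of -0.76, and summed signals of 7481 to 9312 in vehicle and 2987 to 8648 in SKI-606 samples. SKI-606 sample 2 had a cell cycle score of 8.79, inside the vehicle range of 8.56 to 8.98. Its member mean was 7.60, below all vehicle values on the quantile-normalized scale. This is 1 tumour, which also had the highest adipocyte sum. SKI-606 samples 1, 3 and 4 had cell cycle scores of 7.43, 8.38 and 7.48 and member means of 7.45, 7.69 and 7.56. In these samples both values lay below all vehicle values. The luminal epithelial markers, which define the labelled tissue, were present in all samples, with summed signals of 22872 to 27741 in vehicle and 21886 to 26568 in SKI-606 samples and a median of 0.02 over 8 genes. All 8 fibroblast markers were above 0, with a median of 0.78 and summed signals of 12249 to 15186 and 16138 to 27922. All 8 endothelial markers (median 0.74, sums 387 to 701 and 582 to 1212) and all 7 measured T cell markers (median 0.51, sums 47 to 132 and 104 to 191) were above 0 as well, the latter dim, with Cd2 and Cd4 near the floor. Of 13 squamous markers 10 were above 0, with a median of 0.60 and sums of 1654 to 14364 and 718 to 27995. Adipocyte and sebaceous markers, of cells rich in lipid synthesis, had medians of 0.16 over 7 genes and -0.07 over 5. Adipocyte sums ran from 410 to 2253 in vehicle samples and from 443 to 6030 in SKI-606 samples. Sebaceous sums ran from 1905 to 3925 and from 2492 to 3113, with Mc5r near the floor. Skeletal muscle markers, 8 of 8 above 0 with a median of 0.22, were highest in vehicle sample 1 and SKI-606 sample 2, with sums of 18921 and 12853 against 78 to 5882 in the others. The part of these differences in the member values was not tested.

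**Figure D5:**
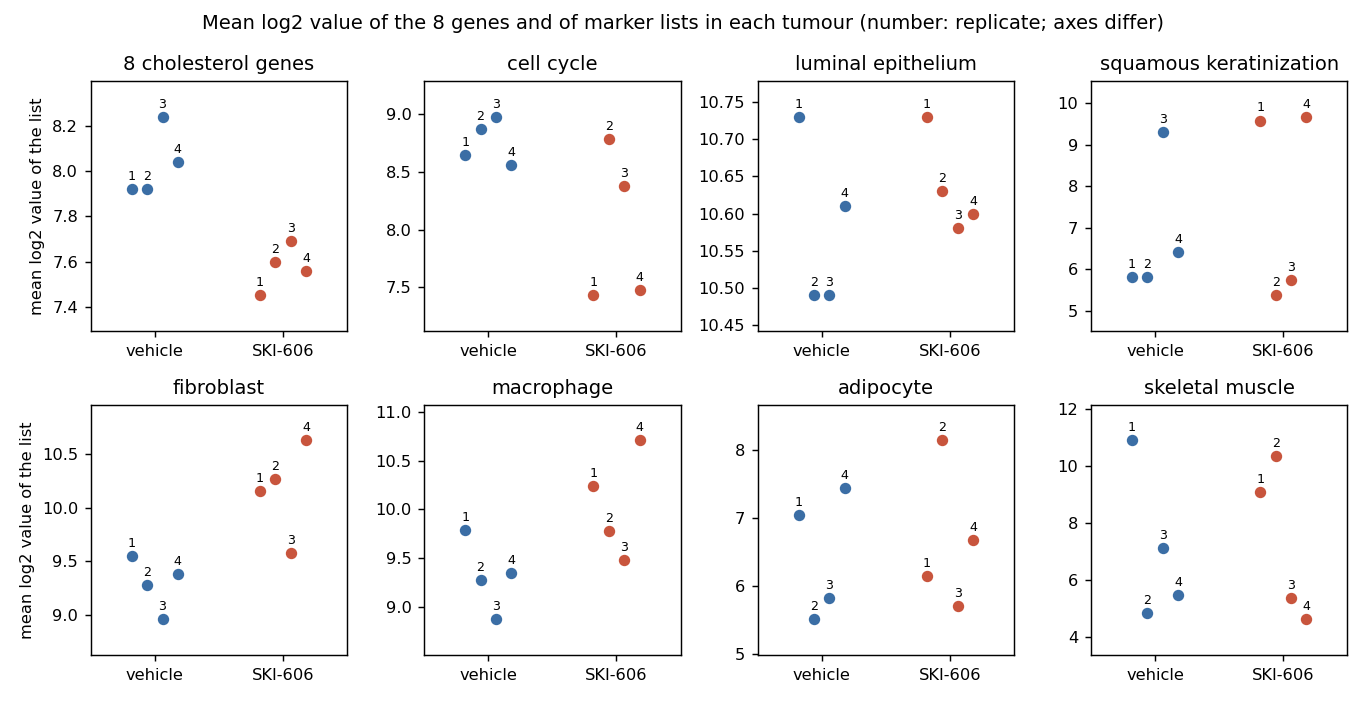
Mean log2 value of the 8 members and of 7 marker lists in each tumour, with replicate numbers, vehicle in blue and SKI-606 in red (axes differ between panels). On the quantile-normalized scale the member mean separates the groups, at 7.92 to 8.24 against 7.45 to 7.69. The fibroblast score does so in the other direction, at 8.96 to 9.55 against 9.58 to 10.63, and the luminal panel does not.

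The genes whose profiles over the 8 samples lay nearest to the mean profile of the members were sought among 7254 genes with a mean signal of at least 100. Likeness was the root mean square difference of centred log2 values. The 8 nearest were Phactr4 at 0.08, Atxn2, Gfm1 and Maip1 at 0.09, and Nup50, Agap1, Bag2 and Fh1 at 0.10. None of them belongs to the lists of sterol genes used here. Among the members themselves Sqle was nearest to the mean profile at 0.13, followed by Cyp51 at 0.22, Mvd at 0.25, Lss at 0.26, Hmgcs1 at 0.28, Fdft1 at 0.34, Fdps at 0.43 and Idi1 at 0.55. These genes, picked for likeness to the profile, had log2 fold changes from -0.50 to -0.38, which the choice itself brings about.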

How the data were processed

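RNA of 8 mammary tumour samples, 4 vehicle and 4 SKI-606, was read on Affymetrix arrays, and groups were taken from the sample titles. A small RNA input of 8 ng is listed for every sample. The deposited values are linear ratios, made by the authors with software that is not given in the sources used here. From the values, each ratio is a signal divided by its array median and by its probe median (a constant where that was low), with a lowest value of 0.01. Whole-number signals were worked back from the ratios, taking the smallest set that fitted, and all 45101 probes (100.0%) were given back within a relative 0.0001. On 5000 simulated probes 99.70% were recovered exactly, and the others were not. The recovered signals had a trimmed mean between 99.82 and 99.84 in every array, so they already shared a scale. No intensity files, detection calls or batches were used.

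After leaving out 64 control probes, signals were quantile normalized, 16 was added and log2 taken. The plan had foreseen that a table of ratios would be turned back to signals. Probes (45037) were tested with limma 3.58.1 under R 4.3.3, using lmFit and eBayes and tested on simulated data, adjusted by Benjamini-Hochberg at 0.05. Platform annotation gave 34945 probes 1 symbol, 932 several, and 9160 are unnamed here. A gene was represented by its brightest probe. At least 91.7% of probes differed between any 2 arrays.

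All member probes were named. In each list, genes with an unadjusted p under 0.05 were named, or the 2 of smallest p, besides Srebf2 and Insig1, named whatever their p. The 8 genes of nearest profile were named as well. The members and lists were chosen with earlier results of these data known. Alternatives were the pseudocount (1 and 64), scaling, the deposited ratios, a signal filter at 50, array weights, a replicate block, samples left out and the mean of probes.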

Additional observations from a re-analysis of the deposited data

How the results depend on the processing

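In all settings run, limma called 0 probes of the array, 0 member probes and 0 pathway genes. Unadjusted p-values under 0.05 were reached by 1693 to 4923 probes. The members' median log2 fold change, -0.43, became -0.17 with arrays scaled to a common median, -0.18 on the log2 of the deposited ratios and -0.24 without SKI-606 samples 1 and 4 and vehicle sample 3. The number of members lower at an unadjusted p under 0.05, 3, became 0, 0 and 1 in these settings. Taking the mean of all probes of a gene gave a median of -0.32 and a count of 2. Leaving out 1 replicate each gave medians from -0.48 to -0.40 and counts of 3 to 4. From 6 to 8 members were below 0 over all settings. Hmgcs1, Mvd, Idi1, Fdps, Sqle and Lss kept their sign in all 18 alternatives. Fdft1 turned to 0.03 without further normalization between arrays, 0.26 with a common median, 0.27 on the deposited ratios and 0.06 with array weights. It ranged from -0.13 to 0.12 with 1 replicate left out (0.12 without vehicle sample 3 or SKI-606 sample 2, and 0.02 when SKI-606 sample 3 was dropped). Cyp51 turned to 0.16 with a common median and 0.18 on the deposited ratios, and Insig1 to 0.05 and 0.06. With 1 replicate left out Srebf2 ranged from -0.08 (SKI-606 sample 3 dropped) to 0.22, with -0.01 when vehicle sample 1 was dropped. It was -0.0001 when the 3 samples were dropped, where Mbtps2 turned to 0.07. The alternatives for the pathway genes were chosen after seeing the data. The common median and the deposited ratios move most bright genes up, as the medians in the report show, and the cause of the other turns was not tested. Searching only the part before the start site gave the same motif counts.

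Deviations of same-numbered samples of the 2 groups had correlations of 0.02, 0.11, -0.15 and -0.11, so no pairing by number was seen. These few values cannot show that the numbers carry no pairing. With the replicate block the members' median was -0.43, 3 members were lower at an unadjusted p under 0.05, and 0 probes were called. Signals below 50 limit 8 of the 22 member probes, and 4 arrays a group limit all values.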
